A study of Mus musculus and Rattus norvegicus with 26 samples.

Results

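The contigs described here are the stretches of intronic reads that the 6 deposited lists place in intron number 1 of a RefSeq transcript, the first intron after the transcription start. They were taken from the lists by their intron label alone. Of 112345 contigs in the 6 lists, 12538 lay in first introns, and these filled 7519 of the 85860 listed introns, each intron being counted once per list. By symbol they belonged to 3396 mouse and 1076 rat gene symbols.

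The lists come from a survey of cytoplasmic intron sequence-retaining transcripts (CIRTs), mRNAs that keep part of an intron after export to the cytoplasm. Each list pools the libraries of 1 condition, in which RNA of few cells was copied through 3 rounds of antisense RNA (aRNA) amplification started from a poly(T) primer. The neuronal lists hold dendrites (3 libraries) and somas (3 libraries) of hippocampal neurons from C57BL/6 mouse embryos of day 18, and dendrites (2 libraries) and somas (3 libraries) of the same neurons from Sprague-Dawley rat embryos of day 18. The non-neuronal lists hold brown adipose tissue (BAT) cells of CD-1 mouse embryos of day 17.5 (6 libraries), and cardiomyocytes of day 14.5 embryos of transgenic C57BL/6 mice (9 libraries), hemizygous for the Fucci cell cycle probe mAG-hGem (1/110) under the CMV promoter. A dendrite library pooled many processes that were cut by hand from cultured neurons and may include axons, whereas a soma, BAT or cardiomyocyte library was 1 whole cell with its nucleus. The numbers of libraries are those of the labels. The study's text counts fewer BAT cells and cardiomyocytes, and the lists do not say which libraries were pooled. The cardiomyocytes had been sorted for fluorescence and viability. A whole cell can therefore contribute unspliced nuclear RNA, and nuclear and cytoplasmic intron reads cannot be told apart in those 4 lists.

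Introns are removed from the precursor RNA by the spliceosome, which joins the 5′ splice site to the 3′ splice site. The first intron is set apart from the others in mammalian genes: it is usually the longest, it lies next to the promoter and its CpG island, it often carries enhancers and alternative promoters, and in many genes it lies before the start codon, so that its retention would not interrupt the reading frame. The question asked of the lists was whether contigs in first introns differ from those in the other introns of the same list in number, length and reads, and which genes carry them. The lists give no value per library. The spread between libraries could not be measured, and each comparison rests on the agreement of the 6 lists.

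The sequences below show what such contigs look like. The first 4 are, in each mouse list, the single contig with the most reads among first introns with 1 contig, that touches no annotated exon. They were read from the NCBIM37 (mm9) reference on the strand of the gene, as the 300 bases at the 3′ end of the contig. Capitals mark runs of 6 or more A, the kind of stretch to which a poly(T) primer can bind.
Dnajc3, mouse dendrites, chr14:119348262-119348561, plus strand: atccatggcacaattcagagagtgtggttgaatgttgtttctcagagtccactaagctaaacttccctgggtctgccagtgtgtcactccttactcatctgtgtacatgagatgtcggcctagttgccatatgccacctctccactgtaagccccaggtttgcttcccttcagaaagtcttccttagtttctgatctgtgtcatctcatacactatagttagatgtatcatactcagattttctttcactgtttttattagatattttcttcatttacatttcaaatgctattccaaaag
Pcnx, mouse somas, chr12:82993980-82994279, plus strand: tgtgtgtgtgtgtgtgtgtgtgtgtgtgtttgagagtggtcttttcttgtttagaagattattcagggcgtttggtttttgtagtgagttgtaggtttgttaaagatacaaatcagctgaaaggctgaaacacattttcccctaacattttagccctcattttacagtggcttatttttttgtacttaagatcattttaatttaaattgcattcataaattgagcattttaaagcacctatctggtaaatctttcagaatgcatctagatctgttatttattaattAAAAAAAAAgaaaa
Nkx2-5, BAT cells, chr17:26976593-26976892, minus strand: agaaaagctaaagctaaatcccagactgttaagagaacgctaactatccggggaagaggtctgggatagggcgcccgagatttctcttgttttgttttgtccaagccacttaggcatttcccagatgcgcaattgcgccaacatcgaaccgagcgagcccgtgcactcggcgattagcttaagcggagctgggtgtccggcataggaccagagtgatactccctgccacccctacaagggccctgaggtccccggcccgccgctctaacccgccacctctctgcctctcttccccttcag
Tmem17, cardiomyocytes, chr11:22413943-22414242, plus strand: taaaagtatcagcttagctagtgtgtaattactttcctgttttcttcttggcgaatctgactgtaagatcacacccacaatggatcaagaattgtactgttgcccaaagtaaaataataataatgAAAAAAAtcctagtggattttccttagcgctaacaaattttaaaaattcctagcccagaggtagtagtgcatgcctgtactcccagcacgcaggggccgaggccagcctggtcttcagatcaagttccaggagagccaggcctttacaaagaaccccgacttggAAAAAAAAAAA

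Dnajc3, a co-chaperone of the endoplasmic reticulum, had 5582 reads in a contig of 1059 nt that began 10109 nt into an intron of 14938 nt. Pcnx, the mouse homologue of the fly gene pecanex, had 7940 reads in a contig of 472 nt near the 3′ end of an intron of 34458 nt. Nkx2-5, a homeobox factor of the heart, had 26804 reads in a contig of 791 nt that reached the 3′ splice site, and Tmem17, a membrane protein of the cilium, had 19763 reads in a contig of 1127 nt. The stretch of Nkx2-5 ends in the pyrimidine tract and AG of the splice site, and its contig had a GC content of 53.7%, against 35.7% to 38.8% in the other three. The shown parts of the Pcnx and Tmem17 contigs end in or near a run of A, whereas no run of 6 A is present in the parts of Dnajc3 and Nkx2-5. Length is given throughout as the deposited end minus the deposited start, 1 less than the number of bases.

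First introns made up a similar, small part of every list. They were 1753 of 19477 listed introns in mouse dendrites (9.0%), 939 of 10568 in mouse somas (8.89%), 802 of 7426 in rat dendrites (10.8%), 506 of 5315 in rat somas (9.52%), 2490 of 30018 in BAT cells (8.30%) and 1029 of 13056 in cardiomyocytes (7.88%). Of the listed genes, 20.3% had a contig in the first intron in mouse dendrites (1746 genes), 15.9% in mouse somas (936), 17.9% in rat dendrites (802), 14.9% in rat somas (506), 24.3% in BAT cells (2482) and 16.6% in cardiomyocytes (1027). These shares are the background for every gene group below. For 41.3% of the mouse dendrite transcripts with a listed first intron, that intron was the only one listed, and this share was 53.4% in mouse somas, 53.7% in rat dendrites, 59.1% in rat somas, 31.4% in BAT cells and 42.0% in cardiomyocytes. The intron reads of a whole list ranged from 1007530 in rat dendrites to 17858440 in BAT cells, and the first introns held between 8.96% (mouse somas) and 12.6% (BAT cells) of them. Read counts are raw, are not scaled for depth or length, and are therefore compared only within a list.

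First introns were listed almost only where they lie within the coding sequence. Mouse transcripts were matched to the annotation of the same build, and all annotated introns of the listed transcripts with at least 2 introns served as the denominator, so that each share is among transcripts with some listed intron. Of first introns that lie wholly before the start codon, 8 of 2905 were listed in mouse dendrites (0.28%, 95% Wilson interval 0.14 to 0.54), 2 of 1907 in mouse somas (0.10%), 79 of 3398 in BAT cells (2.32%) and 24 of 2070 in cardiomyocytes (1.16%). Of first introns between the start and the stop codon, 1627 of 5748 were listed in mouse dendrites (28.3%, interval 27.2 to 29.5), 875 of 3973 in mouse somas (22.0%), 2214 of 6800 in BAT cells (32.6%) and 923 of 4112 in cardiomyocytes (22.4%). The 2 kinds of intron are of similar length, with medians of 4624 nt and 5460.5 nt in mouse dendrites, and the intervals of their shares are far apart in all 4 lists. The deposited first introns are thus almost all introns of the coding sequence: 99.4% of those matched in mouse dendrites and in mouse somas, 95.7% in BAT cells and 96.8% in cardiomyocytes.

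Second introns before the start codon were also listed rarely, with 1 of 522 listed in mouse dendrites, 5 of 336 in mouse somas, 40 of 631 in BAT cells and 13 of 378 in cardiomyocytes. Of introns of number 3 or higher before the start codon, 16 of 245 were listed in mouse dendrites (6.53%). Introns after the stop codon were listed rarely in the neuronal lists too, with 11 of 560 in mouse dendrites (1.96%) and 8 of 374 in mouse somas (2.14%), and in 74 of 640 cases in BAT cells (11.6%) and 45 of 404 in cardiomyocytes (11.1%). In contrast, where the first intron lies before the start codon, the second intron is often the first one within the coding sequence, and 28.9% of those (688 of 2383) were listed in mouse dendrites, 21.2% in mouse somas, 34.9% in BAT cells and 24.5% in cardiomyocytes. The study's methods describe the removal of introns that overlap gene predictions or known poly(A) sites, but no step that treats introns before the start codon apart. Whether such a step acted on these introns was not tested. The exceptions are few, and examples are the first intron of Myo3a, an unconventional myosin, with 6723 reads in BAT cells, of Larp1b, a La-related protein, with 540 in cardiomyocytes, and of Rnpepl1, an aminopeptidase-like protein, with 52 in mouse somas. These genes were picked after their values were seen.

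Within the coding sequence, the listed share was lower in later introns, and the intervals of first and second introns overlapped in all 4 lists. In mouse dendrites 28.3% of introns number 1, 27.1% of number 2, 23.0% of number 3 and 13.7% of number 10 were listed. In BAT cells the shares were 32.6%, 32.7%, 29.1% and 20.8%. Median intron length also fell, in mouse dendrites from 5460.5 nt for number 1 to 1511.5 nt for number 10. High numbers exist only in transcripts with many introns. The part of either in this gradient was not tested. By its own measure, the study reported no 5′ or 3′ bias and a uniform frequency of CIRTs along the introns of a gene model. The smallest two-sided p that 4 lists can give in a sign-flip test is 0.125, so the shares are given without a test.

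**Figure D1:**
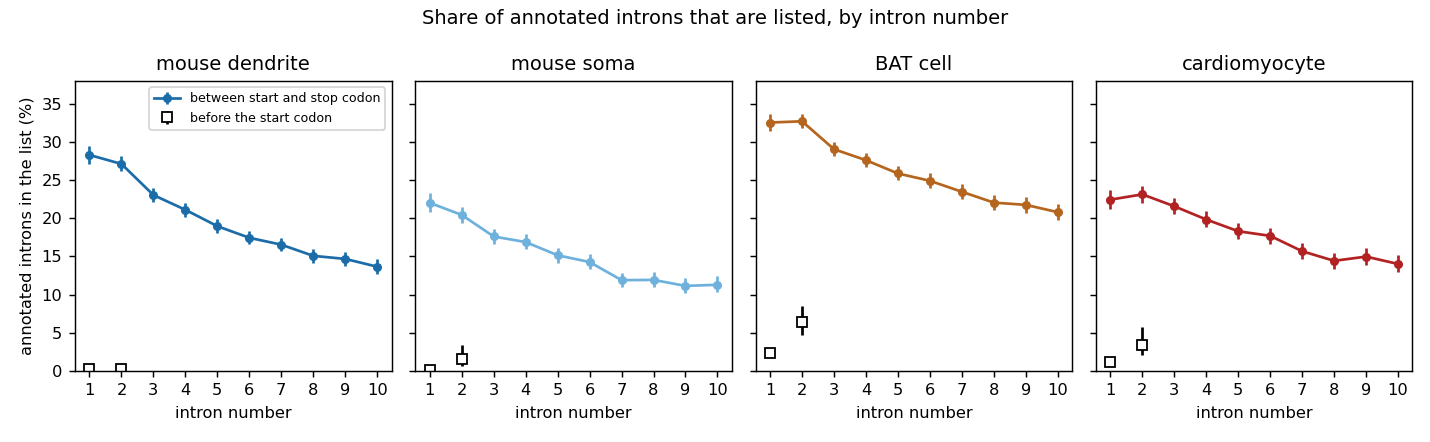
Share of annotated introns of the listed mouse transcripts that have a contig (%), against intron number, in the 4 mouse lists, with 95% Wilson intervals. Filled points are introns between start and stop codon and open squares are first and second introns before the start codon, which sit between 0.10% and 6.34%, below every filled point.

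Counted over all introns, first introns were listed more often than the others in each mouse list: 18.9% against 15.6% in mouse dendrites, 14.9% against 11.7% in mouse somas, 22.4% against 21.8% in BAT cells and 15.3% against 14.6% in cardiomyocytes. In transcripts with at least 5 introns they were higher in 2 of 4 lists, and the mean difference came down from 1.96 to 0.270 points. They are also longer, with a median of 5232 nt against 1586 nt among the annotated introns of the mouse dendrite transcripts. When the other introns were weighted to the lengths of the first introns, their shares became 23.7%, 17.9%, 27.9% and 19.2%, above those of the first introns in all 4 lists. With introns outside the coding sequence left out, a choice made after seeing the data, the first introns were again higher, by 3.76 points in mouse dendrites, 3.62 in mouse somas, 4.02 in BAT cells and 2.82 in cardiomyocytes at equal lengths. The number of introns per transcript was not held equal in this comparison. Against second introns of the coding sequence at equal lengths they were lower, with differences of -2.68, -1.76, -2.57 and -2.69 points.

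The listed share depended strongly on intron length. In mouse dendrites it was 2.65% of first introns up to 300 nt, 20.4% of those between 1000 and 3000 nt, 44.1% between 10000 and 30000 nt, and 13.0% above 100000 nt. Over the 28 combinations of list and length class, first introns were listed more often than introns of number 3 and higher in 20, and more often than second introns in 5. They were below both in all 4 lists above 30000 nt.

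**Figure D2:**
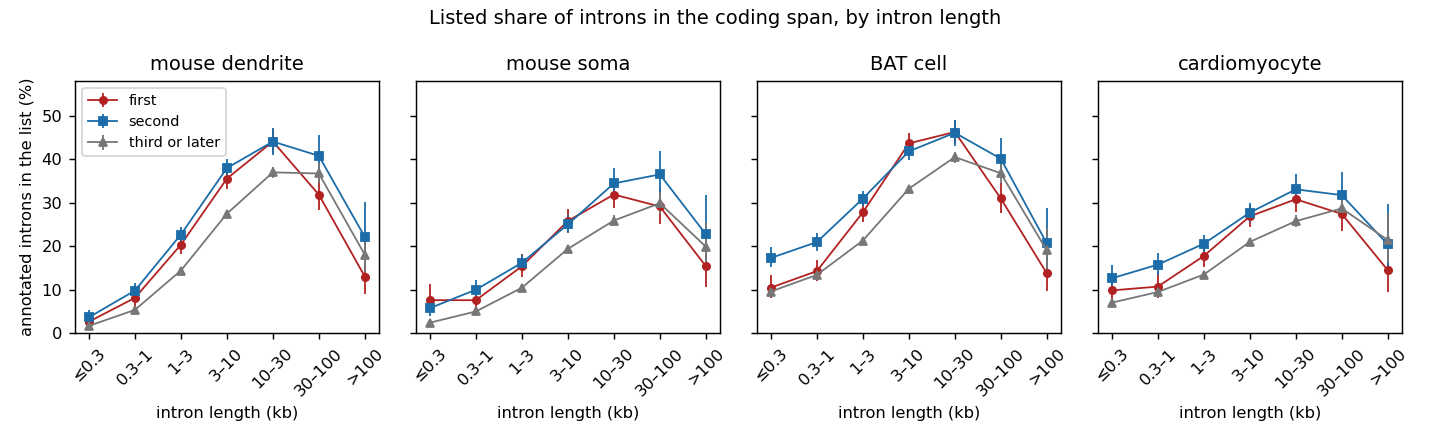
Share of annotated introns within the coding span that are listed (%), against intron length in kb, for introns number 1, number 2, and number 3 or higher of the 4 mouse lists, with 95% Wilson intervals. The share of first introns peaks at 10 to 30 kb in each list, at 44.1% in mouse dendrites, and is lower above 30 kb.

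Listed first introns held more separate contigs than other introns of the same list. The mean number of contigs per first and per other intron was 1.77 and 1.32 in mouse dendrites, 1.40 and 1.21 in mouse somas, 1.32 and 1.12 in rat dendrites, 1.37 and 1.12 in rat somas, 1.93 and 1.36 in BAT cells, and 1.51 and 1.21 in cardiomyocytes. The first introns were higher in 6 of 6 lists, by a mean of 0.328 ± 0.152 contigs (SD over 6 lists). The exact two-sided sign-flip permutation test over lists gave p = 0.03125, its smallest possible value, and adjusting for the 5 measures (Benjamini-Hochberg) raised this to 0.0521, so that the difference missed 0.05. Against second introns only, the mean difference was 0.195 contigs, again with first introns higher in 6 of 6 lists (exact test, adjusted p = 0.156). More than 1 contig was found in 37.1% of first and 18.4% of other introns of mouse dendrites, and in 37.9% and 20.8% in BAT cells. 

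This difference moved with intron length. The matched listed first introns had a median length of 9131 nt in mouse dendrites, against 3649 nt for the others. When the other introns of the coding span were weighted to the lengths of the listed first introns, a choice made after seeing the data, they held 1.69 contigs against 1.77 in mouse dendrites, 1.42 against 1.41 in mouse somas, 1.81 against 1.97 in BAT cells and 1.46 against 1.54 in cardiomyocytes. The mean difference over the 4 mouse lists was then 0.0771 contigs, with first introns higher in 3 of 4 lists, too few for a test to pass 0.05. Introns of up to 1000 nt held 1 contig with few exceptions. Between 10000 and 30000 nt the first and other introns held 1.76 and 1.64 contigs in mouse dendrites, 1.40 and 1.38 in mouse somas, 2.32 and 1.99 in BAT cells, and 1.54 and 1.47 in cardiomyocytes. Above 100000 nt the means were 7.52 and 9.05, 3.37 and 4.60, 10.4 and 10.9, and 6.86 and 5.21 in the same order, lower in first introns in 3 of the 4 lists and resting on at most 29 first introns per list. The contigs covered a median of 5.04% of a listed first intron in mouse dendrites, 4.16% in mouse somas, 7.65% in BAT cells and 5.64% in cardiomyocytes, and 8.86%, 9.85%, 14.1% and 13.4% of another intron.

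The contigs themselves were of nearly the same length in first and other introns. The median was 261 and 256 nt in mouse dendrites, 273 and 278 nt in mouse somas, 294.5 and 276 nt in rat dendrites, 323 and 300 nt in rat somas, 281 and 272 nt in BAT cells, and 294.5 and 280.0 nt in cardiomyocytes. First introns were higher in 5 of 6 lists, by a mean of 10.8 ± 10.1 nt (SD, 6 lists, exact sign-flip p = 0.09375, adjusted 0.09375). The direction did not hold for introns with more reads: among introns with at least 32 reads, contigs in first introns were shorter in 6 of 6 lists, with a mean difference of -27.7 nt. This minimum applies to the whole intron, and these first introns also held more contigs, by a mean of 0.543. Contigs of 1000 nt or more were 3.00% of those in first introns in mouse dendrites (interval 2.45 to 3.66) and 2.67% in other introns, a difference within the intervals. They were less frequent in first introns in mouse somas (4.18% against 4.61%) and rat somas (5.04% against 5.82%), and more frequent in rat dendrites (3.41% against 2.88%), BAT cells (6.93% against 6.29%) and cardiomyocytes (8.37% against 7.12%). The intervals overlapped in each of these lists too. The longest contig in a first intron spanned 4004 nt, in Dmd in cardiomyocytes.

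First introns had more reads as a whole and fewer per length of contig. The median reads per listed first and other intron were 37 and 24 in mouse dendrites, 24 and 22 in mouse somas, 18 and 14 in rat dendrites, 23.5 and 25 in rat somas, 45 and 28 in BAT cells, and 68 and 52 in cardiomyocytes. On the log2 scale of the medians the difference was 0.35 ± 0.29 (SD, 6 lists), in favour of the first introns in 5 of 6 lists (exact p = 0.0625, adjusted 0.0781). Within classes of intron length in the mouse lists, the median reads of first introns were higher in 13 of 27 classes with at least 20 introns of each kind. Introns with 2 to the power of 8 (256) or more reads were 18.5% of first and 12.3% of other introns in mouse dendrites and 27.7% against 21.3% in BAT cells, and they were more frequent among first introns in 6 of 6 lists, by 3.53 ± 2.40 points (exact p = 0.03125, adjusted 0.0521). With the other introns of the coding span weighted to the lengths of first introns, chosen after seeing the data, the mean difference over the 4 mouse lists was 0.594 points, given without a test, and in mouse somas the first introns were lower, at 14.6% against 16.3%. In introns with a single contig, where reads can be set over the length of the contig, first introns had a median density of 2.35 reads per 50 nt in mouse dendrites and other introns 2.82. This density was lower in first introns in 6 of 6 lists, with a mean difference of -0.19 ± 0.10 on the log2 scale (exact p = 0.03125, adjusted 0.0521). The density difference was -0.11 with at least 8 reads, where 3 of 6 lists were higher in first introns, -0.10 with at least 32 reads and -0.15 against second introns, where 3 of 6 lists were higher in first introns. No measure passed 0.05 after adjustment in the main setting, whereas some did with at least 32 reads or with contigs of at most 400 nt, as given below. Among single-contig introns the reads of first introns were not higher in any list, with a mean log2 difference of -0.18 (exact p = 0.0625, adjusted 0.188 over 3 measures).

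**Figure D3:**
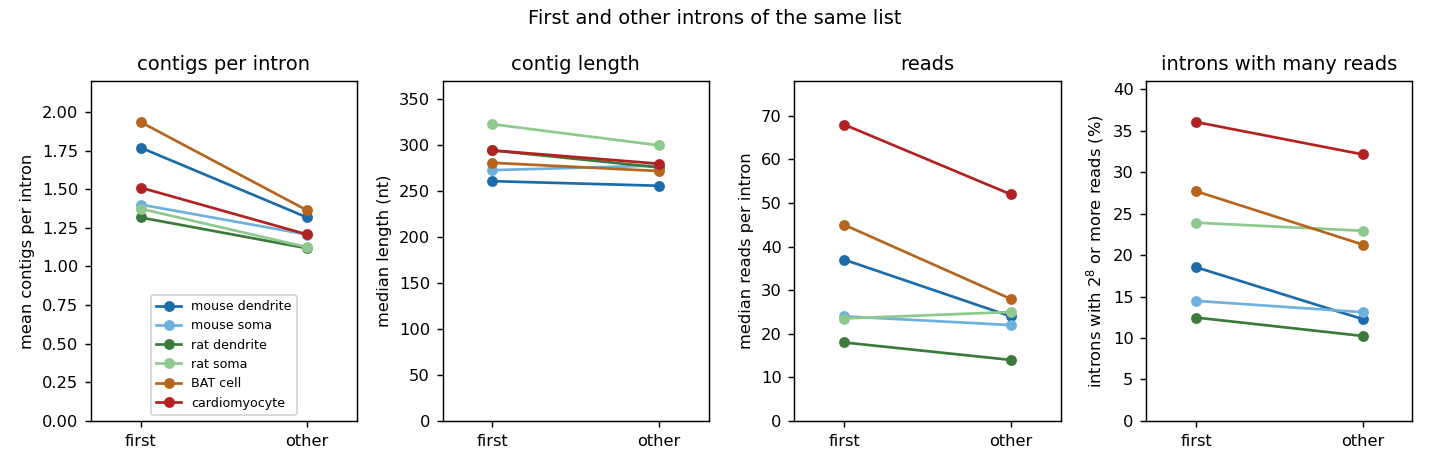
Mean contigs per intron, median contig length (nt), median reads per intron and share of introns with 2 to the power of 8 or more reads (%), in first and in other introns, with 1 line for each of the 6 lists. Lines fall from first to other introns in 6 of 6 lists for the contigs and for the share with many reads, and in 5 of 6 for the length and the median reads.

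Contigs were spread over the whole first intron. Their midpoints fell into the first, middle and last of 3 equal pieces in 31.9%, 33.0% and 35.2% of cases in mouse dendrites, in 30.8%, 35.6% and 33.5% in mouse somas, in 33.2%, 34.5% and 32.4% in BAT cells, and in 35.8%, 31.0% and 33.2% in cardiomyocytes. In introns of at least 5000 nt the first piece held 39.5% in cardiomyocytes (interval 36.7 to 42.4) and 33.4% in mouse dendrites, against 37.7% and 35.0% in other introns of that size. A contig within 1000 nt of the 5′ splice site was less frequent in first than in other introns of at least 5000 nt, with 6.53% against 10.3% in mouse dendrites, 6.75% against 11.1% in mouse somas, 8.55% against 11.4% in BAT cells and 10.6% against 14.6% in cardiomyocytes. The same held at the 3′ splice site, with 7.26% against 9.18%, 8.56% against 10.3%, 8.29% against 11.1% and 8.51% against 12.1% in the same order. First introns of this size are also longer, and the part of length was not tested.

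Annotated exons of the same gene, from other transcripts, were touched by 1.94% of first-intron contigs in mouse dendrites (59 of 3047, interval 1.5 to 2.49), by 4.46% in mouse somas, 3.76% in BAT cells and 5.56% in cardiomyocytes. The shares in other introns were higher in each list, at 4.47%, 8.79%, 7.0% and 10.3%. Exons on the opposite strand were touched by 0.72% to 1.38% of first-intron contigs, and since the reads carry no strand, such a contig cannot be told apart from RNA of the partner gene. An A tract of at least 10 bases within 300 nt downstream was found for 8.40% of first-intron contigs in mouse dendrites, 19.2% in mouse somas, 8.31% in BAT cells and 11.8% in cardiomyocytes, against 7.77%, 17.7%, 6.71% and 8.41% in other introns. The intervals of the first and other introns overlap in both neuronal lists and do not in BAT cells and cardiomyocytes. These intervals cover the counting error of contigs only, and several contigs can lie in 1 intron. They do not test a difference between lists. A T tract of the same length within 300 nt upstream, which would be an A tract on the opposite strand, was more frequent in first introns in all 4 mouse lists, with 14.1% against 11.3% in mouse dendrites, 14.5% against 10.4% in mouse somas, 11.6% against 7.54% in BAT cells and 9.87% against 6.40% in cardiomyocytes, and with intervals that do not overlap. Both windows were cut at the ends of the intron, and were therefore shorter for contigs near an end. Such contigs were more frequent in other introns. In mouse dendrites 34.4% of them lay within 1000 nt of the 5′ splice site, against 14.0% in first introns, and 33.4% against 16.4% near the 3′ splice site. How far this shaped the tract shares was not tested.

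Base composition set the start of first introns apart. The median GC content of contigs was 41.8% in first and 40.8% in other introns of mouse dendrites, and it was higher in first introns in the other 3 mouse lists too. CpG, the dinucleotide that is depleted from most of the genome and kept in promoter islands, was counted per 100 nt of contig. In introns of at least 5000 nt, contigs that began within 500 nt of the 5′ splice site held 2.04 ± 0.27 CpG (SE, 65 contigs) in first introns of mouse dendrites and 0.85 ± 0.03 (736 contigs) in other introns. The values were 2.18 ± 0.34 and 0.88 ± 0.05 in mouse somas, 3.00 ± 0.23 and 0.87 ± 0.02 in BAT cells, and 2.63 ± 0.27 and 0.85 ± 0.03 in cardiomyocytes. Beyond 10000 nt the first introns held between 0.79 and 0.84 and the other introns between 0.65 and 0.80. The same stretches without reads were not compared.

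**Figure D4:**
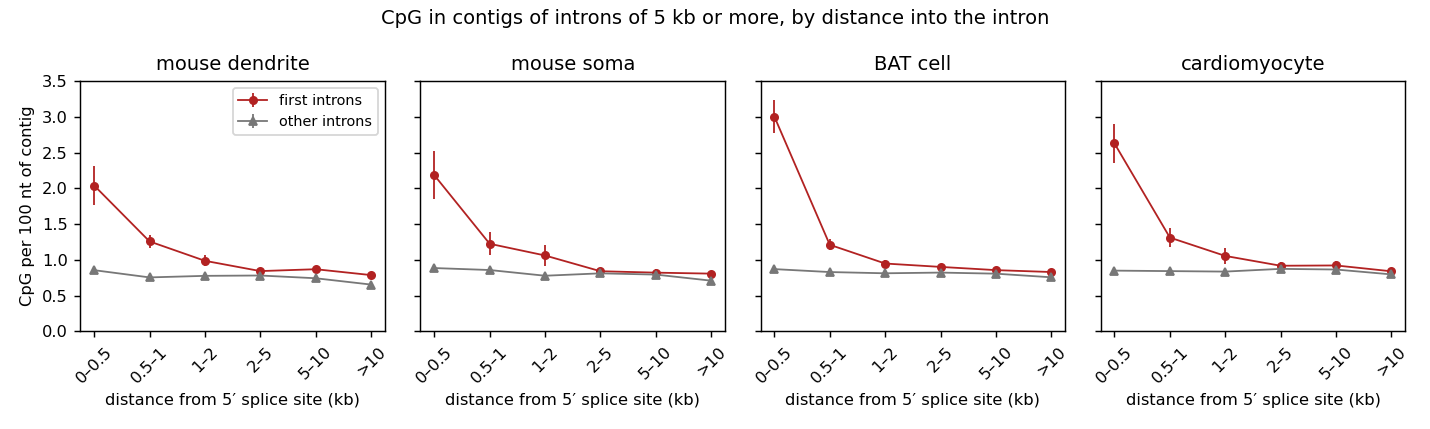
CpG per 100 nt of contig (mean, bars are the SE over contigs) against the distance of the contig from the 5′ splice site in kb, for introns of 5000 nt or more in the 4 mouse lists. First introns start between 2.04 and 3.00 within 500 nt and come down towards the other introns, which stay below 1.

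The genes with the most reads in a first intron differed between the lists. In mouse dendrites these were Eif3h, a subunit of translation initiation factor 3 (5783 reads, chr15:51676844-51695964, 3 contigs), Dnajc3 shown above, Fry, a microtubule-binding protein (5093 reads, 5 contigs), Wnk1, a kinase that regulates chloride cotransporters (4731 reads, 6 contigs, 1 of them on an annotated exon), and Osgep, an enzyme of tRNA modification (4646 reads, 1 contig). None of them led its list: Eif3h ranked 33 among all listed introns of mouse dendrites. The most contigs in a dendritic first intron, 23, belonged to Eda, which encodes the ligand ectodysplasin, spread from 97173969 to 97498750 on chromosome X within an intron of 333817 nt.

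In mouse somas, after Pcnx, the most-read first introns were those of A830018L16Rik (7253 reads, 9 contigs), Zfand3, a zinc finger protein (5534 reads, 4 contigs), Rasgrf2, an exchange factor for Ras (4116 reads, 1 contig), and Reln, the secreted glycoprotein reelin (3968 reads). Reln also had the most contigs of that list, 11, over chr5:21798022-21849105, and 1 of them touched an annotated exon of its own strand and 1 an exon of the opposite strand.

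In rat dendrites Elovl4, an elongase of very long fatty acids, had 9125 reads in 2 contigs and ranked 6 among all introns of the list. Preb, a guanine exchange factor of the endoplasmic reticulum, followed with 4824, Ube2m, the conjugating enzyme of NEDD8, with 3877, Akap6, an anchor of protein kinase A, with 3219, and Ncam1, a neural cell adhesion molecule, with 2748. The 17 contigs of Ncam1 were the most in that list, spread from 52925530 to 53116816 on chromosome 8 of rn4. In rat somas the 5 most-read first introns lay between 7790 and 8694 reads, in Gpr89, an anion channel of the Golgi, Whamm, an activator of actin nucleation, Tulp4, Vax2, a homeobox factor of the eye, and Cadm1, a synaptic adhesion molecule. Pde4b, a phosphodiesterase that breaks down cAMP, had the most contigs there, 14, with 4652 reads.

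In BAT cells Tmem170b had 95000 reads in 4 contigs and ranked 3 among all introns of the list. It was followed by Stard5, a carrier of cholesterol (44125 reads), Crb1, a polarity protein (43032), Plcxd2 (37071) and Cpa6, a carboxypeptidase (31528 reads in 15 contigs). The single contig of Stard5 covered 99.3% of its intron of 596 nt and touched an annotated exon of the same strand. In cardiomyocytes the first intron of Dmd, which encodes dystrophin of the muscle cell membrane, had more reads than any other intron of the list, 163979 in 33 contigs (chrX:80194814-80371343). Its intron is 187480 nt long and the contigs covered 18.1% of it. Rbpms, an RNA-binding protein, had 54197 reads, Tsc22d2 33449, Tbc1d4, a regulator of glucose transporter traffic, 30517, and Mlf1 28224, with 1 of its 4 contigs on an annotated exon.

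The same first introns returned in several lists. Of 3412 first introns listed in any mouse list, 1686 were in 1 list, 925 in 2, 529 in 3 and 272 in all 4 (7.97%). Of 43187 other introns, 3.36% were in all 4. Mouse somas and dendrites shared 603 first introns, 34.4% of those in dendrites and 64.2% of those in somas, and 4446 other introns, 25.1% and 46.2%. The longer length of first introns goes along with this sharing, and its part was not tested. Those named here are among the 8 with the highest lowest count. Klhl7, an adaptor of a ubiquitin ligase, had 3603 reads in mouse dendrites, 1211 in mouse somas, 867 in BAT cells and 3122 in cardiomyocytes. Lgr4, a receptor for R-spondins, had 3636, 2112, 1188 and 625 reads in the same order. Dmd had 1673, 565, 12396 and 163979. The lists differ in depth, so that these counts show presence in each list and not an order between lists. Fam59a, Ndfip1, an adaptor of Nedd4 ubiquitin ligases, Rtn3, a reticulon, and Kctd8, a partner of the GABA-B receptor, had at least 434, 324, 270 and 263 reads.

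Sharing an intron did not mean sharing its contigs. Of 594 first introns matched and listed in both mouse dendrites and somas, 51.0% had contigs that overlapped between the lists (interval 47.0 to 55.0), and 59.2% of other shared introns did. Between introns of 3000 to 30000 nt these shares were 48.9% and 52.8%, with intervals that overlap. Only 45 of 268 first introns listed and matched in all 4 mouse lists held a stretch that was present in all of them (16.8%, interval 12.8 to 21.7), against 29.8% of 1419 other introns. This contrast was not split by intron length. First introns are longer, and the part of length in it was not tested. One such stretch, in an intron without a contig on an annotated exon, is that of Ndfip2, a relative of Ndfip1. It was chosen after its values were seen and shows where contigs of the 4 lists overlap.
Ndfip2, 169 bases, chr14:105659145-105659313, plus strand: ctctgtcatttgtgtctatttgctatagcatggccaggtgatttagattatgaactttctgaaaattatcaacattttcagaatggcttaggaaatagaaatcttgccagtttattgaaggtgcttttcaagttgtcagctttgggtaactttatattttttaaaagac

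The stretch of Ndfip2 lies 925 nt into an intron of 28614 nt and has no run of 6 A. Ndfip2 had 215 reads in mouse dendrites, 2658 in mouse somas, 4471 in BAT cells and 526 in cardiomyocytes. In Klhl7 a longer stretch of 558 bases was common to the 4 lists, but contigs there touch an annotated exon on the opposite strand. Other genes with a common stretch were Ndufa1 (430 bases), Ndufc2 (656 bases), Ndufb10 (155 bases), Uqcr10 (243 bases) and Uqcr11 (194 bases), which encode subunits of the mitochondrial respiratory chain and whose first introns are 1025 to 6508 nt long. They were picked after their values were seen, and no enrichment was tested.

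Across species, 190 gene symbols had a listed first intron in both mouse and rat dendrites, 10.9% of the mouse and 23.7% of the rat genes, and 81 had one in both kinds of soma, 8.65% and 16%. With any listed intron the shares were 32.1% and 61.6% in dendrites and 30.1% and 52.3% in somas. A listed first intron in all 4 neuronal lists was found for 38 symbols. Pde4b led them by its lowest count, with 3757 reads in mouse dendrites, 231 in mouse somas, 237 in rat dendrites and 4652 in rat somas. Ndufa1, a subunit of complex I, had 382, 212, 528 and 151 reads. Aak1, a kinase of clathrin adaptors, had 279, 72, 1290 and 810. Gatc, Klhl7 and Ndfip1 had lowest counts of 54, 47 and 46.

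In all 6 lists 25 symbols had a listed first intron. Among them were Ndufa1, Ndufc2, Atp5l and Timm8b of the mitochondrion, Rpl13a and Rpl36al of the ribosome, the ubiquitin ligase Nedd4l with its adaptor Ndfip1, the kinases Aak1, Cask, Slk and Wnk1, the glucocorticoid receptor Nr3c1 and the calcium sensor Stim1. These names were picked from the 25 after their values were seen, and some rest on few reads. In rat somas Nedd4l, Stim1 and Timm8b had 2 reads and Wnk1 and Atp5l had 3. Rpl13a had 12 to 51 reads. Slk ranged from 4 reads in rat somas to 11955 in BAT cells. Pde4b had at least 231 reads in every list and 22364 in cardiomyocytes. First introns of a symbol were compared across species by name, and whether they are the same intron was not tested.

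**Figure D5:**
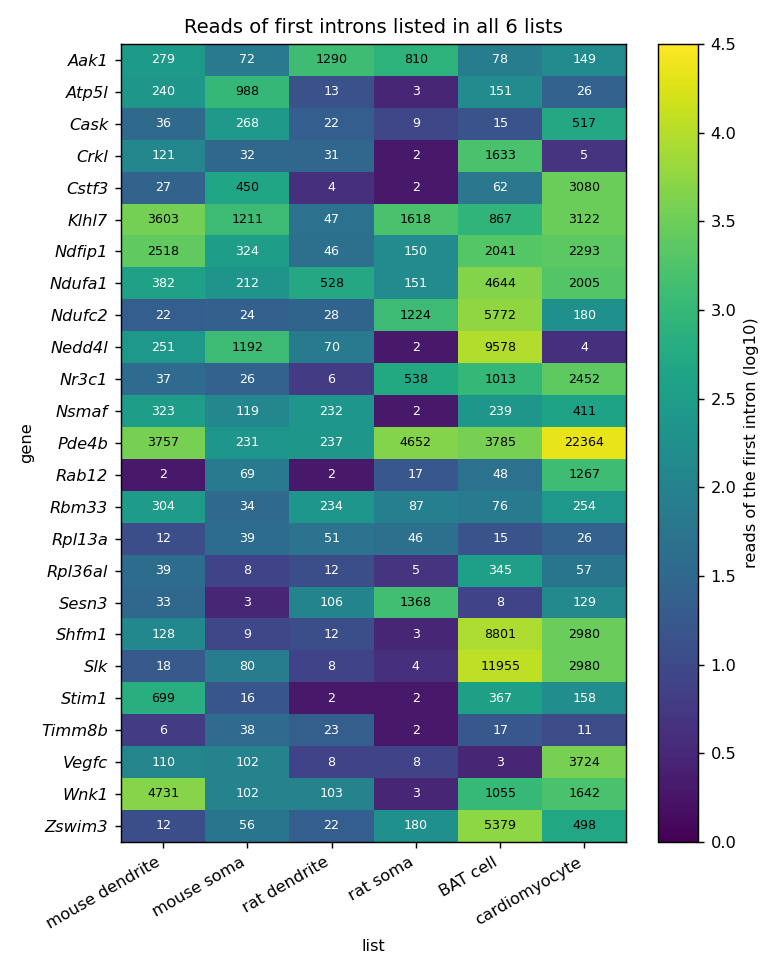
Reads of the first intron for the 25 gene symbols with a listed first intron in all 6 lists, as numbers and as colour on a log10 scale. Pde4b lies between 231 and 22364 reads, whereas Timm8b and Rpl13a stay at or below 51 reads in all lists.

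The 6 gene lists describe how first introns of known groups behaved, beside the background shares given above. Of 36 listed genes for glutamate receptors and ion channels, 1 had a first-intron contig in mouse dendrites (2.78%, background 20.3%), and in mouse somas it was 1 of 34. The gene was Kcnj3, a potassium channel, with 28 and 2 reads. In rat dendrites 4 of 19 listed genes of the group had one (21.1%, background 17.9%), and in rat somas 3 of 24, led by the kainate receptor Grik3 with 632. The group was in BAT cells at 1 of 32 and in cardiomyocytes at 0 of 20 (background 16.6%).

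Synaptic adhesion and scaffold genes had a first-intron contig in 3 of 29 listed genes in mouse dendrites (10.3%) and 1 of 24 in mouse somas, in 5 of 23 in rat dendrites (21.7%) and 4 of 22 in rat somas (18.2%), and in 2 of 30 in BAT cells and 1 of 16 in cardiomyocytes. The scaffold Homer1 had 184 reads in mouse dendrites. In the rat the adhesion molecules Cadm1 (752 reads in dendrites, 7790 in somas) and Opcml (7544 in somas) stood beside Ncam1. Sarcomere and cardiac genes were at 7 of 32 in cardiomyocytes (21.9%, background 16.6%) and 6 of 25 in BAT cells (24%, background 24.3%), against 3 of 21 in mouse dendrites, 1 of 16 in mouse somas, 1 of 7 in rat dendrites and 0 of 7 in rat somas, and beside Dmd the actin-binding tropomyosin Tpm1 had 8637 reads in cardiomyocytes and 2910 in BAT cells, where Nkx2-5 led the group. Lipid and thermogenesis genes were at 5 of 27 in BAT cells (18.5%), led by the phosphodiesterase Pde3b with 4644 reads and the fatty acid carrier Fabp4 with 4386. Those genes were at 3 of 15 in mouse dendrites, 2 of 13 in mouse somas, 0 of 9 in rat dendrites, 1 of 6 in rat somas and 3 of 16 in cardiomyocytes. RNA-binding genes were at 7 of 27 in mouse dendrites (25.9%), 6 of 21 in mouse somas (28.6%) and 3 of 13 in rat somas (23.1%), and at 1 of 16 in rat dendrites (6.25%), 5 of 29 in BAT cells (17.2%) and 4 of 25 in cardiomyocytes (16%). Qk, a splicing regulator, had 8375 reads in cardiomyocytes and 6004 in BAT cells. Transcription regulators were at 9 of 33 in BAT cells (27.3%), 4 of 17 in rat dendrites (23.5%) and 4 of 13 in rat somas (30.8%), and at 5 of 29 in mouse dendrites (17.2%), 2 of 23 in mouse somas (8.70%) and 5 of 28 in cardiomyocytes (17.9%). The gene lists are given as counts and were not tested.

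The defining genes of the cell types were looked up in each list. Neuronal markers were listed for 7 of 10 genes in mouse dendrites and 9 of 10 in mouse somas, none through a first intron, and for 3 and 4 of 10 in rat dendrites and somas. Brown adipocyte markers were listed for 9 of 10 genes in BAT cells, with 160043 summed intron reads, of which Fabp4 and Ucp1 also had a first intron listed (4386 and 9 reads). Cardiomyocyte markers were listed for 9 of 10 genes in cardiomyocytes, with 326360 summed reads, and Nkx2-5 was the one without a listed intron there. It was listed in BAT cells with the 26804 reads shown above, where 4 other cardiomyocyte markers were also listed and the 5 together summed to 49637 reads. Neuronal markers were listed for 7 of 10 genes in BAT cells with 18593 summed reads. In mouse dendrites glial markers were listed for 5 of 6 genes with 163 reads, brown adipocyte markers for 6 of 10 with 1287 and cardiomyocyte markers for 5 of 10 with 1601, beside 4234 reads of neuronal markers. In cardiomyocytes neuronal markers were listed for 2 of 10 genes with 4547 reads, of which 1110 lay in the first intron of Camk2a, a calcium-dependent kinase, brown adipocyte markers for 4 of 10 with 4008, and glial markers for 0 of 6. How far other cells contributed to the contigs in first introns was not tested.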

How the data were processed

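RNA of 26 libraries, as labelled, was amplified and sequenced as paired 50 nt reads. The authors aligned the reads to mm9 or rn4 with the RUM pipeline and Bowtie. They discarded introns overlapping gene predictions, known poly(A) sites or annotated non-coding RNAs, and introns with junction reads only. Reads up to 500 nt apart were joined into contigs, and 1 list per condition was deposited. For somas, BAT cells and cardiomyocytes the study kept only contigs of at most 400 nt. The lists used here also hold longer ones: in mouse somas 67.5% of first-intron and 67.3% of other contigs met that limit. The deposited read count is the raw number of reads of the whole intron, repeated on each contig, and was used once per transcript and intron. Start and stop count from 0 and stop is the last base: of 83646 contigs in long introns, 5665 ended on the last intron base and 53 ended 1 base before it.

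The GENCODE vM1 annotation of NCBIM37 (mm9) held a match for 12838 of 13156 mouse transcripts, and the others were left out where the annotation was used. The rat genome was not used here. First and other introns were compared within a list, and 5 measures were tested over the 6 lists with the exact sign-flip test (Benjamini-Hochberg adjusted). The test was tested on simulated data. The lists share genes and annotation, so that p describes the agreement of 6 lists. Wilson intervals (95%) cover counting error only. Named genes are the 5 most-read first introns of a list, those with the most contigs or the longest contig, the 8 and 6 with the highest lowest count in the 4 mouse and 4 neuronal lists, and at most 3 per gene list, some of which are not reported here. Members and gene lists were chosen with earlier results of these data known. Alternatives changed the read minimum, contig length limit, transcripts, comparison introns, joining distance and summaries. Python 3.11.15, numpy 2.4.6, pandas 2.3.3, scipy 1.17.1 and pysam 0.24.0 were used.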

Additional observations from a re-analysis of the deposited data

How the results depend on the processing

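The 5 measures compared between first and other introns kept their direction under most alternatives, with exceptions for contig length and for introns with a single contig. The difference in median contig length (10.8 nt) became -10.7 nt with at least 8 reads, -27.7 nt with at least 32 reads (exact sign-flip test, adjusted p = 0.0391), -0.583 nt against second introns only and -1.67 nt with a single contig. With a single contig, the reads per intron became -0.18 on the log2 scale and the share with 256 or more reads -0.708 points. With at least 32 reads the contigs per intron (0.543), the log2 reads (0.21) and the share with 256 or more reads (4.27 points) passed 0.05, and with contigs of at most 400 nt so did the contigs per intron (0.210), the log2 reads (0.58), the log2 density (-0.24) and that share (5.10 points), each with adjusted p = 0.0391 by the exact test. Under the 400 nt limit the read count stayed that of the whole intron, and introns with only longer contigs dropped out. How far this moved the measures of reads was not tested. The log2 density was higher in first introns in 3 of 6 lists with at least 8 reads (-0.11, adjusted p = 0.375, exact test) and against second introns (-0.15, adjusted p = 0.703, exact test), and the share with 256 or more reads fell to 1.58 points against second introns (adjusted p = 0.625, exact test). Over the alternatives with 6 lists the adjusted p ran from 0.0391 to 0.156 for contigs per intron and to 0.703 for reads per intron.

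First introns were 9.06% of listed introns on average over the lists, 11.1% of contigs, 18.3% of genes and 11% of reads. The listed share of first minus other introns in mouse (1.96 points) became -4.30 at equal lengths and 0.270 in transcripts with at least 5 introns (higher in 2 of 4 lists). Within the coding span, chosen after seeing the data, it was 10.3, then 3.56 at equal lengths and -2.43 against second introns at equal lengths. The share of contigs in the first of 3 pieces of the intron, first minus other, was 0.256 points and became -7.36 by the contig start. No paired analysis was possible because each list pools its libraries, so that replicate numbers could pair no samples, and for the same reason no library could be left out. First and other introns were paired within each list. The lists give no spread between libraries, and an intron not listed may only be too thinly read.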
